A study of Mus musculus with 15 samples.

Results

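Left ventricles that had been infarcted and then injected with the rHCI hydrogel were set against left ventricles with no infarct, to see what was still changed in the treated hearts. The members were the 5 libraries whose sample titles begin with rHCI and the 5 whose titles begin with Sham, which together are 10 of the 15 libraries of the study, and all genes with enough counts, 16076 of the 47069 in the table. All mice were C57BL/6. In the rHCI group a myocardial infarct was made, the hydrogel was injected into the heart muscle 7 days later, and the heart was taken 2 days after the injection. The sham group had a sham operation, no infarct and no treatment, and was collected at a matched age of 10 weeks. Since the sham hearts received no injection, the effects of the infarct, of the injection and of the gel cannot be told apart here. The 5 remaining libraries are infarcts injected with saline (PBS) on the same schedule. They are used for values side by side and for 1 direct test. Otherwise they enter only the scaling of the levels shown and an alternative fit of all 15 libraries. The rHCI gel is made of recombinant human collagen type I, a fibrous protein of scar and connective tissue. The whole left ventricle was ground, so each library mixes scar, border and remote muscle.

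After an infarct the dead muscle is cleared by neutrophils, monocytes and macrophages, and fibroblasts turn into secretory cells that lay down a collagen scar. Surviving myocytes are stretched, return in part to the gene programme of the fetal heart and burn less fat, while the adult myocyte normally takes most of its energy from fatty acids in densely packed mitochondria. The genes below are ordered by these roles: the scar matrix and the cells that make it, the immune cells, vessels and epicardium, dividing cells, and then the myocyte with its contractile, electrical and metabolic genes.

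Read totals ran from 53211878 to 100899246 counts in the sham libraries and from 48699092 to 62577074 in the rHCI libraries. Levels are given as CPM, counts scaled to one common library total with edgeR's TMM factors, always in the order Sham 16, 17, 18, 19 and 20 and rHCI 1, 3, 7, 11 and 13. Along the first principal component of the 2000 most variable genes, which held 84.5% of their variance, every sham library was on one side and every rHCI library on the other. In the sample descriptions 8 of the 10 libraries begin with the same identifier, read here as that of a sequencing run, and rHCI 1 and Sham 19 carry another, so results are also given for the shared run where it ends a call. Mitochondrially encoded genes took 16.4% ± 0.769 (SD, n = 5) of the counts in sham and 12.2% ± 1.73 in rHCI. The labelled tissue was checked with the ventricular light chain Myl2, which stood at 6438 to 7768 CPM in the sham and 3244 to 5459.7 CPM in the rHCI libraries.

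edgeR's quasi-likelihood F-test, adjusted by Benjamini-Hochberg over all 16076 genes, called 10268 genes (63.9% of those tested) at a threshold of 0.05. Of these, 5487 genes were higher in rHCI than in sham (34.1% of all tested) and 4781 were lower (29.7%). All adjusted p-values below come from this test unless another is named. Rises were larger than falls. The median log2 fold change was 0.85 among the genes called higher and -0.39 among those called lower, and 2322 genes (14.4%) rose more than 2-fold while 222 (1.38%) fell more than 2-fold. For 7943 genes (49.4%) each rHCI library lay beyond each sham library. A scaling choice bears on this split. With library totals in place of TMM factors the median of all genes moved from 0.00 to 0.22, and the calls became 8011 higher and 2128 lower, with 10 genes changing from lower to higher. Counts of list members below are to be read against the 34.1% and 29.7% called among all genes. Small falls are relative to the bulk of genes, and values under library totals are given beside a gene group where they alter its direction. In ground tissue, fewer cells of a type and less RNA per cell cannot be told apart.

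**Figure D1:**
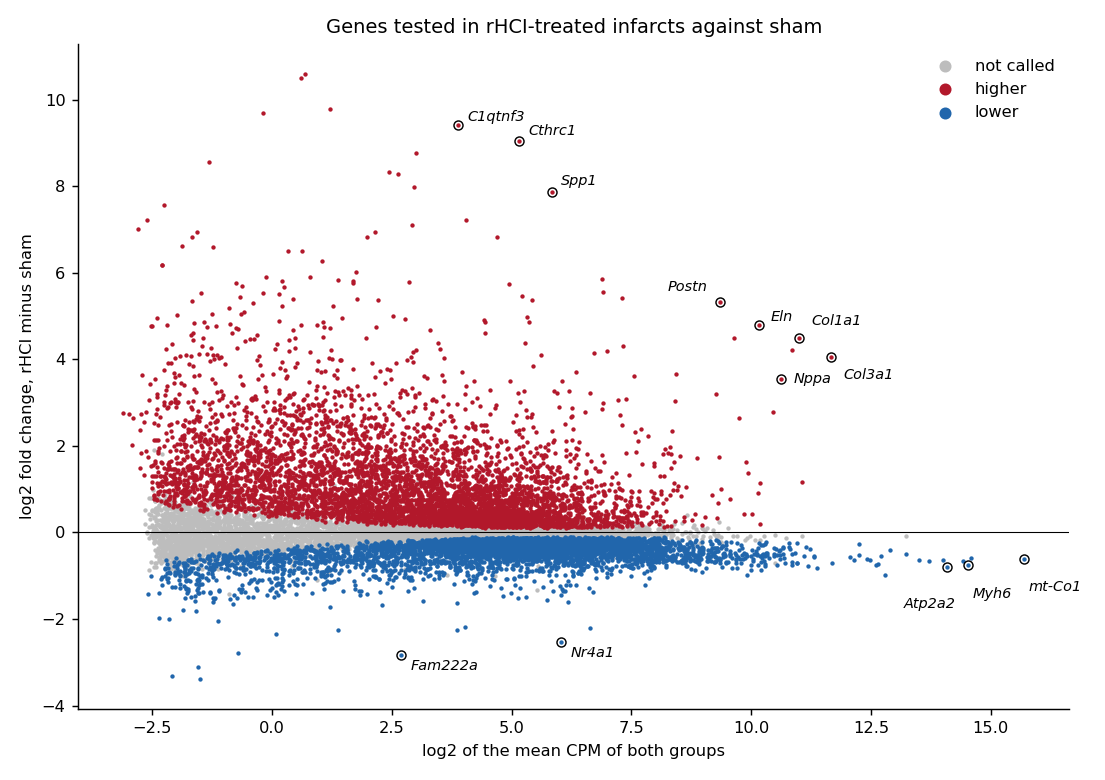
Each point is 1 of the 16076 genes tested, with the log2 of its mean CPM on the horizontal axis and its log2 fold change (rHCI minus sham) on the vertical axis; red genes are called higher, blue genes lower and grey genes neither. The 5487 rises reach much further from 0 than the 4781 falls, and Col1a1 and Col3a1 combine a high level with a large rise, 22.5-fold for Col1a1.

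**Figure D2:**
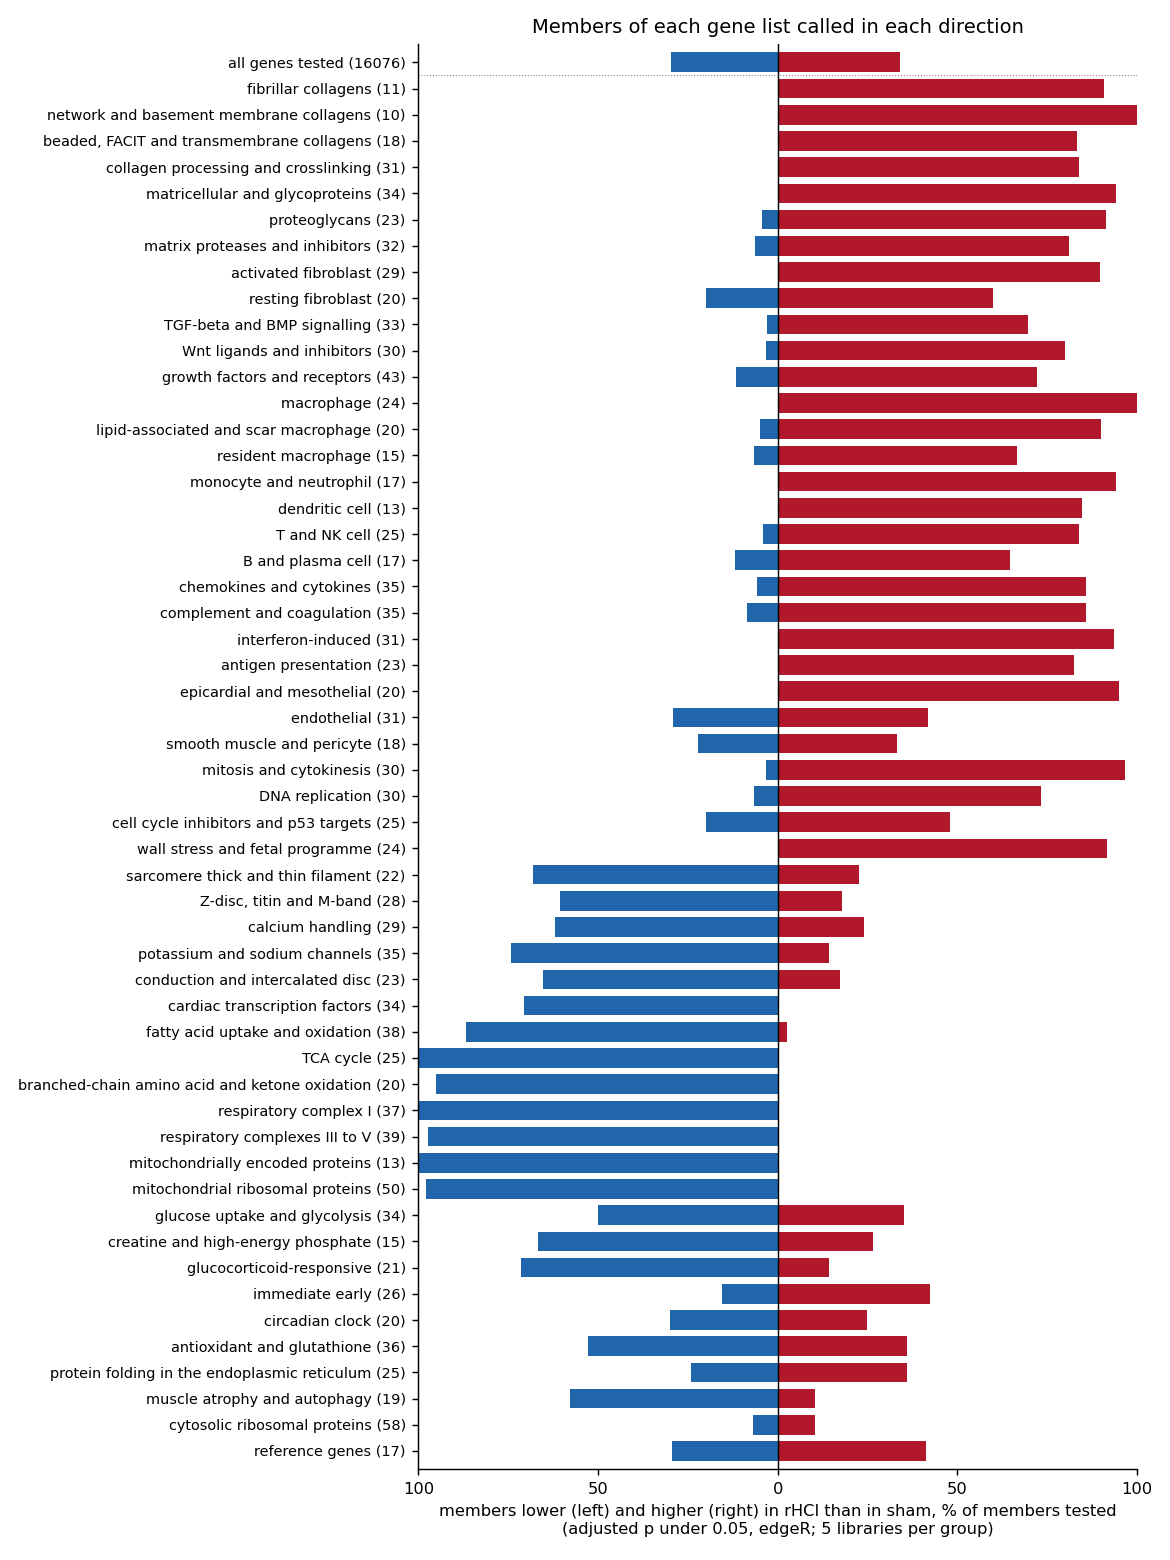
For each gene list drawn, the bar to the right is the percentage of tested members higher in rHCI than in sham (adjusted p under 0.05). The bar to the left is the percentage lower. The number of members tested is in brackets and the top row is all genes. Some lists, mast cell genes among them, are not drawn. Matrix, mitosis and most immune lists lie mainly to the right, B and plasma cell genes being less one-sided. Mitochondrial lists lie almost wholly to the left.

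The scar's main structural genes were still strongly raised. Col1a1 (ENSMUSG00000001506, chromosome 11, 94936224 to 94953042 on GRCm38), which encodes a chain of type I collagen, stood at 175, 180.2, 195, 193 and 135 CPM in the sham libraries and at 4029, 5399, 3931, 3208 and 3035 CPM in the rHCI libraries. Every rHCI heart exceeded every sham heart by a wide margin, rHCI 3 being the highest and rHCI 13 the lowest of the treated hearts. The log2 fold change was 4.49 ± 0.18 (SE, n = 5 and 5, adjusted p = 6.00e-09), a 22.5-fold rise. Its partner chain Col1a2 rose by 4.22 on the log2 scale and Col3a1, the type III collagen of young scar, by 4.05. Fibrillar collagens as a list had 10 of 11 members higher and 0 lower, at a median log2 fold change of 4.05, and the exception was Col11a2 (0.18, adjusted p = 0.558). Their joint share of all counts was 0.0833 ± 0.0116% in sham and 1.58 ± 0.426% in rHCI.

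The largest relative rises among fibrillar collagens were in types that are scarce in the sham ventricle. Col11a1, a cartilage collagen that helps set fibril thickness, read 0.377, 0.450, 0.457, 0.453 and 0.505 CPM in sham and 39.0, 83.7, 64.1, 51.0 and 18.6 CPM in rHCI, so that the groups were far apart and rHCI 3 and rHCI 7 stood highest. Its log2 fold change was 6.84 ± 0.42 (adjusted p = 8.14e-08). Col24a1 rose by 6.02 and Col2a1, the main collagen of cartilage, by 5.84, from sham means of 0.0938 and 0.0785 CPM. All 10 network and basement membrane collagens tested were higher (median 1.33), led by the short-chain type VIII genes Col8a2 (5.46) and Col8a1 (3.61). Of the beaded, fibril-associated and transmembrane collagens, 15 of 18 were higher and 0 lower, among them Col12a1 (4.86) and Col16a1 (3.70).

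Balance between the chains shifted as well. In reads per kilobase, Col3a1 made up 58.7 ± 1.87% of Col3a1 plus Col1a1 in sham and 51.4 ± 1.69% in rHCI, which separated the groups completely (exact permutation test, two-sided, p = 0.00794, adjusted over 24 gene pairs 0.0119). With 5 against 5 libraries there are 252 arrangements, and that p is the smallest they can give. Type III collagen mRNA therefore rose slightly less than type I. Col1a2 likewise went from 36.3 ± 1.2% to 32.0 ± 0.477% of Col1a2 plus Col1a1 (adjusted exact p = 0.0119).

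Enzymes that finish and crosslink collagen rose with their substrate. Lox, the oxidase that crosslinks collagen and elastin, measured 6.62, 6.73, 8.92, 7.22 and 6.61 CPM in sham and 289.8, 465, 382, 225 and 173 CPM in rHCI. No sham heart came near any rHCI heart, and rHCI 3 was again the highest. The log2 fold change was 5.42 ± 0.27 (adjusted p = 2.03e-08). P4ha3, a prolyl hydroxylase subunit, rose by 7.10, and Adamts2, which trims procollagen ends, by 3.05. Over the list of collagen processing, 26 of 31 members were higher and 0 lower (median 1.12).

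Matricellular proteins and glycoproteins, the adhesive and signalling parts of the matrix, were higher in 32 of 34 members (median 2.59). Cthrc1, a secreted protein made by scar fibroblasts, was close to absent in sham at 0.0941, 0.0614, 0.133, 0.177 and 0.179 CPM and stood at 62.5, 104, 82.1, 57.5 and 45.7 CPM in rHCI. That is a log2 fold change of 9.04 ± 0.32 (adjusted p = 4.86e-09), and the order of the treated hearts was the same as for Col1a1 at its ends, with rHCI 3 highest and rHCI 13 lowest. C1qtnf3, a secreted relative of complement C1q, rose by 9.41 from a sham mean of 0.0440 CPM. Fn1, the fibronectin on which new matrix assembles, went from 68.0 ± 9.32 to 1534 ± 489 CPM (SD, n = 5 each, log2 fold change 4.50). Tnc, the tenascin of healing wounds, rose by 5.37 and Ltbp2, a binding protein of elastic microfibrils, by 5.86.

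Elastin itself was among the genes with the largest gain in mean CPM. Eln read 75.7, 79.2, 98.9, 93.7 and 53.1 CPM in sham and 1635, 3334, 2829, 1757 and 1469 CPM in rHCI. The groups were far apart, with a log2 fold change of 4.79 ± 0.27 (adjusted p = 4.93e-08), and among the treated hearts rHCI 3 and rHCI 7 stood highest and rHCI 13 lowest. Proteoglycans were higher in 21 of 23 members, for example Bgn (2.65), which decorates collagen fibrils, Aspn (2.98) and the cartilage proteoglycan Acan (5.79). The heparan sulfate proteoglycan Gpc1 was the 1 member that fell, from 582 ± 30.3 to 438 ± 26.8 CPM (log2 fold change -0.40), and perlecan, Hspg2, was not called (0.23, adjusted p = 0.175).

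Genes that cut the matrix and genes that restrain the cutting were both raised. Mmp12, a macrophage elastase, was at 0.175, 0.307, 0.400, 0.138 and 0.146 CPM in sham and 33.4, 23.9, 45.4, 33.5 and 27.9 CPM in rHCI, with every treated heart far above every sham heart (log2 fold change 7.21 ± 0.26, adjusted p = 4.86e-09). Timp1, an inhibitor of such proteases, rose by 4.87 and Adam12 by 4.37. Cemip, which breaks down hyaluronan, rose by 8.33, and by 9.67 without Sham 19 and 9.77 in the libraries of the shared sequencing run. Of 32 members 26 were higher. The 2 lower members were Timp4, the inhibitor most typical of healthy heart, and the membrane protease Mmp15 (-0.42). Timp4 fell from 57.9, 43.5, 67.6, 53.6 and 66.4 CPM to 17.1, 18.9, 19.8, 26.1 and 20.8 CPM with no overlap (log2 fold change -1.48 ± 0.13, adjusted p = 1.43e-06).

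Markers of activated fibroblasts were higher in 26 of 29 members and lower in 0, with a median of 2.67. Postn, the periostin that marks scar-forming fibroblasts, stood at 34.5, 33.9, 38.2, 31.8 and 21.9 CPM in sham and 1325, 1771, 1349.8, 968 and 974 CPM in rHCI. The lowest treated heart, rHCI 11, still had many times the level of the highest sham heart, and the log2 fold change was 5.32 ± 0.21 (adjusted p = 6.52e-09). Acta2, the smooth muscle actin used to define myofibroblasts, is made in vessel walls too and was not called, at 179 ± 53.3 CPM in sham and 207 ± 36.6 CPM in rHCI. Markers of resting fibroblasts were mixed, with 12 of 20 higher and 4 lower. Tcf21, a transcription factor of resting fibroblasts that is counted in the activated list too, rose by 1.69. The microfibril protein Mfap5 rose by 2.69 and the hyaluronan synthase Has1 by 3.91, while Hsd11b1, which regenerates active glucocorticoid, fell by 0.63 on the log2 scale. Lpl, a lipase that myocytes also make, fell as well, from 7998 ± 465 to 4791 ± 800.2 CPM (-0.73). With Lpl included, the list's share of all counts was 0.975 ± 0.0299% in sham and 0.918 ± 0.0224% in rHCI.

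Signals that act on fibroblasts moved mostly upward. In the TGF-beta and BMP list 23 of 33 members were higher and 1 lower (median 0.96). Fst, the secreted follistatin that binds activins, rose by 3.17. Fstl1, a follistatin-like glycoprotein, went from 121 ± 14.2 to 1111 ± 296 CPM (log2 fold change 3.21). Wnt ligands and inhibitors were higher in 24 of 30 members. Among them Sfrp2, a secreted inhibitor, measured 4.80, 4.83, 6.86, 4.49 and 4.12 CPM in sham and 225, 306, 288, 200.2 and 159 CPM in rHCI, without overlap (log2 fold change 5.57 ± 0.21, adjusted p = 5.19e-09). Sfrp4 rose by 3.82, Dkk3 by 3.26, and the ligand Wnt4 by 3.65. Among growth factors and their receptors 31 of 43 were higher, including Figf, which is VEGF-D (2.45), Hgf (2.44), and the receptor Fgfr2 (2.38). The 5 lower members included Fgf13 (-0.57), a modulator of cardiac sodium channels, and the vessel-stabilising ligand Angpt1 (-0.50), whose call ended with library totals (-0.28, adjusted p = 0.0960).

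Macrophage genes were higher without exception, 24 of 24, with a median log2 fold change of 2.00. Mpeg1, a pore-forming protein of macrophages, read 14.2, 15.5, 14.1, 15.1 and 9.81 CPM in sham and 117, 168, 151, 125 and 102 CPM in rHCI. The treated hearts were close to each other and far above all sham hearts, of which Sham 20 was the lowest. The log2 fold change was 3.28 ± 0.16 (adjusted p = 1.85e-08). Lgals3, a galectin secreted by macrophages, rose by 4.61, and Ms4a7 by 3.64. Ccr2, the receptor by which monocytes enter tissue, rose by 3.62 from 1.38 to 16.6 CPM.

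Genes of lipid-laden and scar-associated macrophages were higher in 18 of 20 members. Their joint share of all counts was 0.943 ± 0.0356% in sham and 0.940 ± 0.0350% in rHCI (exact permutation p = 0.921), and that sum includes Lpl, the 1 member that fell. Spp1, the osteopontin that such macrophages secrete, had 0.390, 0.348, 0.686, 0.433 and 0.550 CPM in the sham hearts and 116, 99.7, 136, 98.8 and 118 CPM in the rHCI hearts. Unlike the collagens, Spp1 was nearly level across the treated hearts and rHCI 13 was not the lowest. Its log2 fold change was 7.88 ± 0.16 (adjusted p = 2.55e-11). Gpnmb, a lysosomal glycoprotein, rose by 5.75. Arg1, the arginase of repair macrophages, went from a mean of 0.0570 to 15.6 ± 7.29 CPM (7.98), Marco, a scavenger receptor, rose by 6.94, and Saa3, an acute-phase protein, rose by 8.78, or 9.66 without Sham 20.

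Resident cardiac macrophage markers were mixed, with 10 of 15 higher, 1 lower and a median of 0.32. Ccl8 (4.80), Igf1 (2.10), which fibroblasts make too, and Vsig4 (1.81), a complement receptor, were higher. Cd163, the haemoglobin scavenger receptor that marks resident macrophages, went the other way. It stood at 32.5, 32.9, 41.9, 34.8 and 32.1 CPM in sham and 22.1, 21.6, 22.2, 29.9 and 25.6 CPM in rHCI (log2 fold change -0.51 ± 0.10, adjusted p = 8.25e-04), so that all treated hearts were below all sham hearts.

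Other leukocytes were also represented. Monocyte and neutrophil genes were higher in 16 of 17 members, for example Plac8 (3.98), and that list holds Fn1, which fibroblasts make. Dendritic cell genes were higher in 11 of 13, with Itgax up by 3.77 and the growth factor receptor Flt3 by 2.27. T and NK cell genes were higher in 21 of 25 at low levels. Foxp3, which defines regulatory T cells, read 0.0269, 0.0409, 0, 0 and 0.0224 CPM in sham and 0.510, 0.333, 0.417, 0.235 and 0.480 CPM in rHCI, without overlap (log2 fold change 4.24 ± 0.46, adjusted p = 7.44e-06). Il7r, a survival receptor of lymphocytes, rose by 2.65.

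B and plasma cell genes were higher in 11 of 17 members but lower in 2, and hearts differed widely. Ighm, the IgM heavy chain, ranged from 3.57 to 27.3 CPM in sham and from 15.9 to 112 CPM in rHCI, which overlap (log2 fold change 2.20 ± 0.66, adjusted p = 0.0110). Cd22, a B cell receptor, did not overlap and rose by 2.52. The list's count of higher members fell to 5 in the shared run and to 7 without Sham 19, Sham 20 or rHCI 1. Haemoglobins and other erythroid genes had 0 of 8 members higher and 0 lower by edgeR's test, the smallest adjusted p being 0.0768 for the red cell enzyme Bpgm (-0.19). Bpgm was called lower with all 15 libraries in 1 fit (adjusted p = 0.0394), with quality weights (0.0345), and without Sham 18 (0.0119), rHCI 11 (0.0482) or rHCI 13 (0.0323).

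Chemokines and cytokines were higher in 30 of 35 members (median 2.51). The interleukin 1 antagonist Il1rn rose by 5.81, and the neutrophil chemokines Cxcl5 and Cxcl2 by 5.23 and 4.90. The 2 that fell were Cxcl14 (-0.79) and Il15 (-0.64), a cytokine that muscle makes. Complement and coagulation genes were higher in 30 of 35 members, among them Cfi (5.30), F10 (4.24) and the anaphylatoxin receptor C3ar1 (3.11), while the clotting inhibitor Tfpi fell (-0.56).

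Interferon-induced genes, which cells switch on after sensing viral or self nucleic acid, were higher in 29 of 31 members (median 0.93). Oas3, an enzyme that senses double-stranded RNA, stood at 0.471, 0.491, 0.400, 0.512 and 0.236 CPM in sham and 3.24, 3.03, 3.04, 2.69 and 3.84 CPM in rHCI. Every treated heart was several times above every sham heart, with a log2 fold change of 2.94 ± 0.19 (adjusted p = 1.38e-07). Zbp1, a nucleic acid sensor, rose by 2.52, Mx1 by 2.06 and Oas1a by 1.54. Among the treated hearts rHCI 13, which was lowest for Col1a1, had the highest Oas3.

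These members move together, so the DNA ahead of 2 of them is shown, with the letters of an interferon-stimulated response element (ISRE), shortened here to the 9 letters GAAANNGAA and searched on both strands, in capitals. Sequences are the 200 bases before the transcription start from RefSeq on GRCm38.p6, 5′ to 3′ on the gene's strand, the minus strand in both cases: chr5:120777660-120777859 for Oas3 and chr5:120907526-120907725 for Oas1a.
Oas3: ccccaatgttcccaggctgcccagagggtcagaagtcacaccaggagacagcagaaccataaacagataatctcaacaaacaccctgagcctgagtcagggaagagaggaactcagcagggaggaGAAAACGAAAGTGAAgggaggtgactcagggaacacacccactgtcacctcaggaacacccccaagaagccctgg
Oas1a: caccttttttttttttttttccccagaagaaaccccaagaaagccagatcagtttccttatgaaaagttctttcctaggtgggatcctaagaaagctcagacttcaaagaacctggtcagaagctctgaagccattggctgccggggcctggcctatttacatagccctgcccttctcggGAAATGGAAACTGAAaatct
Each has 2 overlapping matches, of which the first begins 75 bases before the start of Oas3 and 20 bases before that of Oas1a. A shorter motif can match more promoters. Over the window from 250 bases before to 50 after the start, 15 of 25 promoters (60%) of the 22 interferon members with a RefSeq promoter held this motif, against 8.56% of all 32851 promoters. A match is a description of the letters and not a measured site.

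Antigen presentation genes were higher in 19 of 23 members. The class II transactivator Ciita rose by 2.32, the class II chain H2-Ab1 by 1.39 and the co-stimulator Cd80 by 2.42. Sham 17 stood apart from the other sham libraries for Ciita and H2-Ab1, yet remained below every treated heart. H2-Ab1 had 24.5, 34.5, 25, 22.1 and 22.6 CPM in sham and 57.1, 65.4, 76.2, 79.2 and 56.1 CPM in rHCI.

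The vessel wall was mixed. Endothelial genes had 13 of 31 members higher, 9 lower and a median of 0.11, which became 20 higher and 6 lower with library totals. The first 2 counts are shares near those of all genes. Those that rose included Aplnr (1.79), the apelin receptor of sprouting vessels, Plvap (1.73), a component of capillary pores, and the adhesion molecule Vcam1 (1.27). Those that fell included the water channel Aqp1 (-0.63) and Rgcc, a cell cycle regulator of capillary endothelium. Rgcc went from 56.8, 45.0, 51.6, 51.5 and 54.3 CPM in sham to 16.3, 16.2, 17, 19.1 and 21.4 CPM in rHCI, with all treated hearts below all sham hearts (log2 fold change -1.52 ± 0.087, adjusted p = 4.93e-08).

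Smooth muscle and pericyte genes were 6 higher and 4 lower of 18. Pdgfrb, a mural cell receptor that fibroblasts also carry, rose by 1.2 and the contractile protein Tagln by 0.90. Abcc9, a potassium channel subunit of pericytes and myocytes, fell by 0.91 on the log2 scale, and the smooth and cardiac muscle coactivator Myocd fell too (-0.54). Lymphatic endothelial genes were higher in 5 of 6, led by podoplanin, Pdpn (2.43), which activated stroma also expresses. Prox1, the lymphatic master regulator that cardiac myocytes share, was the exception (-0.63).

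Genes of the epicardium, the mesothelial layer around the heart, were mostly raised. The list was higher in 19 of 20 members (median 2.07). It is not particular to that layer, since Clu is also counted among wall stress genes and Efemp1 among matricellular genes. The part of other cells in these rises was not tested. Upk1b, a mesothelial membrane protein, had 0.834, 0.798, 0.648, 1.08 and 0.942 CPM in sham and 8.5, 7.47, 5.87, 7.61 and 9.95 CPM in rHCI. The groups did not overlap and the log2 fold change was 3.19 ± 0.16 (adjusted p = 2.62e-08). The protease inhibitor Slpi rose by 4.85. Only Wt1, the epicardial transcription factor, was not called, at 0.40 (adjusted p = 0.0714).

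Cell division genes were still raised. Mitosis and cytokinesis genes were higher in 29 of 30 members, with a median of 2.43. Ccnb1, the cyclin that drives entry into mitosis, read 0.350, 0.327, 0.572, 0.413 and 0.146 CPM in sham and 3.83, 6.46, 5.74, 4.57 and 2.99 CPM in rHCI. Levels were low but separate, rHCI 3 and rHCI 7 being the highest and rHCI 13 the lowest (log2 fold change 3.77 ± 0.31, adjusted p = 7.19e-07). The mitotic kinase Cdk1 rose by 3.06 and the spindle protein Hmmr by 3.26. The exception was Cenpf, a large kinetochore protein, which fell from 58.2, 55.8, 53.6, 48.4 and 48.3 CPM to 24.2, 16.9, 23.8, 35.7 and 30.8 CPM (log2 fold change -1.0 ± 0.16, adjusted p = 1.57e-04).

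DNA replication genes were higher in 22 of 30 members and lower in 2 (median 0.59). Rrm2, a ribonucleotide reductase subunit, rose by 2.41, the thymidylate synthase Tyms by 2.17 and Uhrf1, which copies DNA methylation at the replication fork, by 1.96. Dut, a dUTPase, was lower (-0.35), a call that ended with library totals (-0.13, adjusted p = 0.122). The 200 bases before the start of Uhrf1 (chr17:56303137-56303336, plus strand, GRCm38.p6, RefSeq) hold the letters of an E2F element, GGCGGGAA, on the opposite strand, shown in capitals.
Uhrf1: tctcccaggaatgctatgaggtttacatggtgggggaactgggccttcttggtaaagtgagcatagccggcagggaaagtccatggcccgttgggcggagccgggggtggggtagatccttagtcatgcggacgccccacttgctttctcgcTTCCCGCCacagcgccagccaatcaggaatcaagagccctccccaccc
The match begins 48 bases before the start. Over the full window it was found on either strand in 6 of 29 promoters (20.7%) of replication genes and in 0 of 27 promoters of mitosis genes, against 2.19% of all promoters.

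Cell cycle inhibitors and p53 targets split. 12 of 25 were higher, among them the cyclin-dependent kinase inhibitor Cdkn2b (2.93) and the p53 target Phlda3 (1.57), and 5 were lower. The lower ones included Cdkn1a, which encodes the cell cycle inhibitor p21, at 108, 82.6, 118, 123 and 85.5 CPM in sham and 54.7, 77.3, 63.7, 41 and 25.1 CPM in rHCI (log2 fold change -0.97 ± 0.24, adjusted p = 0.00366). Sesn1, a stress-induced regulator of growth signalling, fell by 0.72 on the log2 scale.

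Contractile genes of the adult myocyte were lower by smaller steps. Of the thick and thin filament genes 15 of 22 fell and 5 rose (median -0.39). Myh6, the fast adult myosin heavy chain (ENSMUSG00000040752, chromosome 14, 54941921 to 54966927 on GRCm38), measured 32456, 27616, 31992, 27821 and 28081 CPM in sham and 17716, 13425, 13945, 20522 and 21103 CPM in rHCI. The groups did not overlap, although rHCI 11 and rHCI 13 kept more Myh6 than the other treated hearts. The log2 fold change was -0.76 ± 0.15 (adjusted p = 8.85e-04). The ventricular light chains Myl2 and Myl3 fell by 0.63 and 0.53 and the cardiac troponin I gene Tnni3 by 0.71 on the log2 scale, while cardiac actin, Actc1, was not called (-0.080, adjusted p = 0.561). With library totals 12 members were lower and 5 higher.

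Some forms typical of the fetal ventricle or of skeletal muscle rose instead. Myh7, the slow fetal myosin, stood at 432, 220.4, 595, 309 and 768 CPM in sham and 1664, 1511, 1833, 1069 and 1074 CPM in rHCI, without overlap, lowest in rHCI 11 and rHCI 13 (log2 fold change 1.63 ± 0.30, adjusted p = 4.54e-04). Per kilobase, Myh7 went from 1.03, 0.619, 1.43, 0.861 and 2.09% of Myh7 plus Myh6 in the sham hearts to 6.83, 8.08, 9.31, 3.91 and 3.82% in the rHCI hearts (exact permutation p = 0.00794, adjusted 0.0119). The adult form remained by far the larger part of the pair in every treated heart. Acta1, the skeletal actin, rose by 0.85 with overlapping groups. Other such forms were not called higher by edgeR. The slow skeletal troponin T gene Tnnt1 was lower (-0.61), and the fetal troponin I gene Tnni1 was not called (0.28, adjusted p = 0.283). Per kilobase, Tnni1 still went from 0.00759 ± 0.0014% to 0.0165 ± 0.00792% of Tnni1 plus Tnni3 (adjusted exact permutation p = 0.0272). The groups overlapped for that share. The remaining members of the list that rose, Myl7, Myl4 and Mybphl, are also counted among the atrial genes below.

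Z-disc, titin and M-band genes were lower in 17 of 28 members and higher in 5. The giant spring protein gene Ttn had 4612, 2584, 3762, 3010.2 and 3151 CPM in sham and 2164, 1699, 1533, 2292 and 1891 CPM in rHCI, with no overlap (log2 fold change -0.83 ± 0.16, adjusted p = 6.29e-04). Cmya5, which anchors the Z-disc to calcium release units, fell by 0.86 on the log2 scale. Ankrd1, a stretch-induced protein of the titin spring, and Pdlim3 rose, by 1.16 and 1.03. With library totals 10 members of this list remained lower.

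Calcium handling genes were lower in 18 of 29 members and higher in 7 (median -0.37). Atp2a2, the SERCA pump that refills the calcium store, read 22304, 21547, 21524, 22634 and 21860.0 CPM in sham and 12190.0, 9494, 11143, 14366 and 16079.5 CPM in rHCI. Its inhibitor phospholamban, Pln, fell alongside from 7637, 7949, 7534, 7894 and 8098 CPM to 4612, 3325, 4180.4, 5105 and 5916 CPM. For both genes the groups were separate and rHCI 3 was lowest, with log2 fold changes of -0.79 ± 0.14 (adjusted p = 4.15e-04) and -0.75 ± 0.13 (adjusted p = 3.93e-04). Hrc, a calcium-binding protein of the store, fell by 0.75.

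Of the potassium and sodium channel genes 26 of 35 were lower and 5 higher. The repolarising channel Kcna5 went from 52.2, 40.9, 48.4, 45.0 and 41.8 CPM to 13.3, 19.3, 18.3, 22.4 and 13 CPM, without overlap (log2 fold change -1.39 ± 0.14, adjusted p = 4.34e-06). Kcnv2, a modifier of potassium channels, fell by 1.59, the transient outward channel Kcnd3 by 0.98 and the sodium channel subunit Scn4b by 1.24. Conduction and intercalated disc genes were lower in 15 of 23, such as the desmosomal Dsp (-0.61), and higher in 4; with library totals 8 were lower and 5 higher. Gja1, the main ventricular connexin, was not called (0.081; with library totals 0.30, adjusted p = 0.0443), and Gja5, the connexin of the conduction system and arteries, rose by 0.87.

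Cardiac transcription factors had 24 of 34 members lower and 0 higher, or 18 lower and 4 higher with library totals. Hand2, a factor of the developing right ventricle, stood at 87.6, 89.5, 105, 84.0 and 128 CPM in sham and 40.1, 35.5, 46.5, 42.3 and 46.9 CPM in rHCI (log2 fold change -1.22 ± 0.12, adjusted p = 2.73e-06), and the groups did not overlap. Ppara, the nuclear receptor that drives fatty acid oxidation genes, fell by 1.12 on the log2 scale. Klf15, which controls daily and fasting metabolism, fell by 1.61.

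Wall stress and fetal programme genes were higher in 22 of 24 members (median 1.18). Nppa, the atrial natriuretic peptide made by stretched ventricle, had 268, 176, 275, 224 and 304 CPM in sham and 4366, 3736, 3623, 1599 and 1269 CPM in rHCI. rHCI 1, 3 and 7 were far higher than rHCI 11 and 13, and all treated hearts were above sham (log2 fold change 3.56 ± 0.34, adjusted p = 2.49e-06). Nppb, the brain natriuretic peptide, was less clear at 217, 179, 304, 327 and 118 CPM and 533, 767, 711, 277 and 123 CPM, which overlap (log2 fold change 1.08 ± 0.43, adjusted p = 0.0414). Its call was lost without any 1 of Sham 16, Sham 17, Sham 20, rHCI 1, rHCI 3 and rHCI 7 (log2 fold changes 0.85 to 1.06, adjusted p 0.0726 to 0.102) and in the shared run (1.21, adjusted p = 0.0652). Nmrk2, which makes NAD and rises in failing hearts, was up by 3.19, and Il6 by 4.78. Sprr1a, a stress protein of squamous epithelium and injured myocytes, rose by 8.28.

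Atrial muscle expresses some of these genes too. Of the 9 atrial genes 7 were higher and 2 lower. The summed level of all 10 atrial genes in the table ran from 1124 to 1401 CPM in sham and from 2519 to 6502 CPM in rHCI. That sum includes Nppa, whose levels given above make up most of its rise, so it is not a separate atrial measure. Sarcolipin, Sln, an atrial inhibitor of the calcium pump, had 2.78, 0.0205, 0.591, 1.75 and 2.61 CPM in sham and 43.5, 10.6, 4.96, 10.8 and 5.81 CPM in rHCI. The library rHCI 1 stood far above the rest for Sln and for Mybphl, and also led for the atrial light chain Myl4. Without rHCI 1 the log2 fold changes went from 3.21 to 2.32 for Sln (4.13 with quality weights), from 3.55 to 2.71 for Mybphl and from 2.75 to 2.13 for Myl4, and all stayed called. None of the atrial genes was at 0 in every library. The part of atrial tissue in the rise of Nppa was not tested.

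Genes of fat burning and respiration were lower almost throughout, by steps too small to be called against a minimum change of 1.5-fold, where 1 fatty acid gene and 0 genes of the tricarboxylic acid cycle and respiratory lists remained. Fatty acid uptake and oxidation had 33 of 38 members lower and 1 higher (median -0.62). Acaa2, the last enzyme of beta-oxidation, read 1068, 939, 889, 1033 and 1042 CPM in sham and 553, 378, 514, 627 and 742 CPM in rHCI, with rHCI 13 nearest to sham and rHCI 3 farthest, and no overlap (log2 fold change -0.81 ± 0.14, adjusted p = 3.53e-04). Plin5, which tethers lipid droplets to mitochondria, fell by 0.93. The 1 member that rose was Cpt1a (0.51), the liver-type carnitine transferase, while the muscle type Cpt1b fell by 0.52.

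Every one of the 25 tricarboxylic acid cycle genes tested was lower (median -0.54), among them Sdha, a subunit of succinate dehydrogenase, from 2048, 1981, 2113, 2088 and 2239 CPM to 1268, 955, 1155, 1437 and 1530.2 CPM (log2 fold change -0.71 ± 0.11, adjusted p = 1.62e-04). Idh2, the mitochondrial isocitrate dehydrogenase, fell by 0.76 on the log2 scale. Oxidation of branched-chain amino acids and ketones was lower in 19 of 20 members, for example Ivd (-0.78) and Bckdhb (-0.77), and the ketone enzyme Bdh1 was the 1 not called (-0.21). All 25 cycle genes and 19 of the 20 remained lower with library totals.

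Respiratory chain genes fell by similar amounts in the nuclear and the mitochondrial genome. Complex I had 37 of 37 nuclear members lower (median -0.54), such as Ndufv1 (-0.69) and Ndufa5 (-0.63), and complexes III to V had 38 of 39 (median -0.54). All 13 mitochondrially encoded proteins were lower (median -0.62). The oxidase subunit mt-Co1 had 58156, 65813, 69275, 65308 and 62728 CPM in sham and 41979.7, 31983, 40015, 44602 and 51069 CPM in rHCI, with the treated hearts below the sham hearts and rHCI 13 nearest to them (log2 fold change -0.61 ± 0.15, adjusted p = 0.00383). mt-Cytb fell by 0.60, mt-Nd5 by 0.65 and mt-Nd6 by 0.70. Among genes called lower, mt-Co1, Myh6, mt-Cytb, mt-Nd5 and Atp2a2 had the 5 largest losses of mean CPM.

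Atp5c1, the central stalk subunit of ATP synthase, fell by 0.61 on the log2 scale (adjusted p = 2.16e-04), and its promoter carries the letters of a binding element of NRF1, a regulator of nuclear genes for mitochondria. The 200 bases before its start (chr2:10080433-10080632, minus strand, GRCm38.p6, RefSeq) are printed with the match to its letters, shortened here to the 9 letters GCGCNTGCG and found on the opposite strand, in capitals.
Atp5c1: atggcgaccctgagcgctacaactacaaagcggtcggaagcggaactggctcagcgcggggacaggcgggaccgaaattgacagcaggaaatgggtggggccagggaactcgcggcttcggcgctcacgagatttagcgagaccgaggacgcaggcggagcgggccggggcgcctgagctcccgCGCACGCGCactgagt
The match begins 16 bases before the start. Searched on both strands over the full window, the motif was present in 10 of 35 complex I promoters (28.6%), 13 of 32 promoters of complexes III to V (40.6%) and 10 of 45 promoters of mitochondrial ribosomal proteins (22.2%), against 6.31% of all promoters. Mitochondrial ribosomal proteins were lower in 49 of 50 members, for example Mrps35 (-0.65) and Mrpl39 (-0.64), and 28 remained lower with library totals.

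Glucose handling did not follow one direction. Of 34 glucose uptake and glycolysis genes 12 were higher and 17 lower (median -0.19), and with library totals 16 were higher and 9 lower. Slc16a3, the lactate exporter of glycolytic cells, stood at 2.08, 1.39, 1.47, 1.53 and 1.32 CPM in sham and 13.6, 18.2, 16.4, 11.1 and 11.4 CPM in rHCI, a separation with no overlap (log2 fold change 3.18 ± 0.17, adjusted p = 3.67e-08). The insulin-responsive glucose transporter Slc2a4 fell by 0.63, and the ubiquitous Slc2a1 rose by 0.46. Ldhb, the lactate dehydrogenase subunit of oxidative tissue, fell by 0.74, while Ldha was not called (-0.054, and 0.17 with library totals, adjusted p = 0.0122). Creatine and high-energy phosphate genes were lower in 10 of 15, including the muscle creatine kinase Ckm (-0.69) and the nucleotide carrier Slc25a4 (-0.64), and higher in 4. With library totals 6 were lower and 4 higher.

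Related genes, most of them a general and a muscle-type form of the same protein, were also compared within each library, where the scaling between libraries has no effect. For 24 such pairs the share of the first gene was taken from reads per kilobase. The share differed between the groups in 21 pairs (exact permutation tests, adjusted p under 0.05), in 16 pairs within the shared run and in 19 to 23 with single libraries left out. In 16 pairs of the full set no rHCI library fell within the sham range. Rpl3, the general form of a ribosomal protein that muscle partly replaces by Rpl3l, made up 23.9, 24.2, 22.8, 23.7 and 20.3% of Rpl3 plus Rpl3l in sham and 48.9, 63.2, 52.5, 40.6 and 37.1% in rHCI (exact p = 0.00794, adjusted 0.0119). The sham hearts lay within a narrow band, and rHCI 3 had gone farthest and rHCI 13 least far. Rpl3 rose by 0.58 and Rpl3l fell by 1.0 on the log2 scale. The pairs not called included Atp5g1 with Atp5g3 (adjusted exact p = 0.238) and Kcnd2 with Kcnd3 (adjusted exact p = 0.0745).

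Shares of the general form also rose for enzymes and respiratory subunits. Ckb, the brain-type creatine kinase, went from 1.92 ± 0.244% to 5.24 ± 1.76% of Ckb plus Ckm. Slc2a1 rose from 3.55 ± 0.443% to 7.54 ± 2.40% of both glucose transporters, Ldha from 16.3 ± 0.873% to 24.2 ± 3.24% of Ldha plus Ldhb, Eno1 from 2.76 ± 0.208% to 5.05 ± 1.07% of Eno1 plus muscle enolase Eno3, and Cpt1a from 19.8 ± 2.62% to 33.9 ± 3.52% of Cpt1a plus Cpt1b, each with an adjusted exact p of 0.0119. For cytochrome oxidase, Cox6a1 went from 4.86 ± 0.353% to 7.96 ± 1.72% of Cox6a1 plus Cox6a2 and Cox8a from 13.9 ± 0.429% to 19 ± 2.73% of Cox8a plus Cox8b (adjusted exact p = 0.0119 for each). The muscle forms Cox6a2, Cox7a1 and Cox8b fell by 0.70, 0.79 and 0.64 on the log2 scale. By contrast Cox6a1 was not called (0.020, and 0.24 with library totals, adjusted p = 0.0101), and Cox8a fell slightly (-0.13). The call of Cox8a was lost with library totals, where its change was positive (0.096, adjusted p = 0.106). It was also lost in the shared run (-0.12) and without rHCI 11 (-0.11). General forms are the ones that fibroblasts and leukocytes use, and the part of the changed cell mixture in these shares was not tested.

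**Figure D3:**
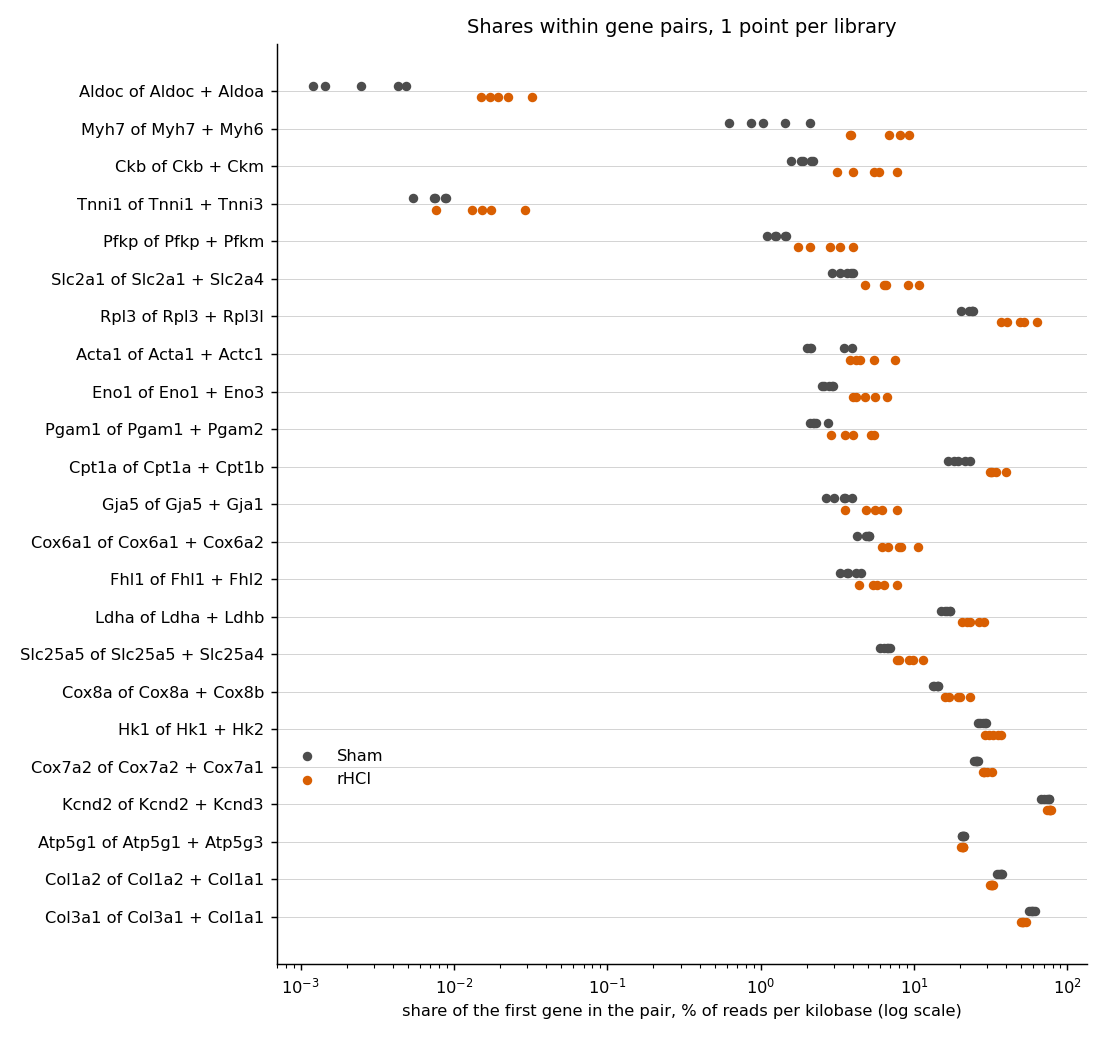
Each row is a gene pair and each point a library, grey for sham and orange for rHCI, placed by the first gene's share of the pair's reads per kilobase in percent on a log axis. In most rows the orange points lie to the right of the grey ones, Rpl3 going from 23% ± 1.61 to 48.4% ± 10.3; for the 2 collagen pairs they lie to the left.

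Glucocorticoid-responsive genes, which the adrenal stress hormone induces, fell in 15 of 21 members and rose in 3 (median -0.77). Arrdc2, an arrestin-domain gene induced by glucocorticoids, had 25.9, 26.8, 23.2, 25.2 and 32.4 CPM in sham and 4.93, 4.77, 5.07, 6.87 and 7.40 CPM in rHCI, with all treated hearts far below all sham hearts (log2 fold change -2.19 ± 0.14, adjusted p = 8.25e-08). The largest falls in the comparison, among genes of at least 5 CPM without overlap, also included Fam222a (-2.83), Fam107a (-2.26), Rasd1 (-1.68), Lingo3 (-1.63) and Rnf144b (-1.55). Hif3a, an inhibitory hypoxia factor, fell by 2.26. Cebpd (0.71) and the metallothionein Mt2 (0.71) rose.

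Immediate early genes, which respond to stimulation within minutes, went both ways, 11 higher and 4 lower of 26. Nr4a1, an orphan nuclear receptor, fell from 190.1, 73.9, 138, 82.3 and 74.6 CPM to 13.3, 23.9, 30.4, 17.7 and 11.6 CPM (log2 fold change -2.52 ± 0.33, adjusted p = 3.57e-05), and the salt-inducible kinase Sik1 fell by 2.20. The zinc finger factors Egr1, Egr2 and Egr3 rose by 2.19, 2.91 and 2.23. Sham hearts differed from each other in Nr4a1 but none came down to the level of the treated hearts.

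Clock genes had 5 of 20 higher and 6 lower. Dbp, an output gene of the clock, read 34.1, 21.9, 19.7, 13.8 and 32.4 CPM in sham and 50.3, 36.4, 46.5, 66.2 and 163 CPM in rHCI, with rHCI 13 far above the other treated hearts (log2 fold change 1.57 ± 0.39, adjusted p = 0.00352). Arntl, the clock activator whose level runs opposite to that of Dbp over the day, had 5.15 CPM in rHCI 13 and 12.6 to 23.1 CPM in the other treated hearts. Per3 rose by 1.19, Per1 fell by 0.97, and Npas2 fell by 0.66, a call that ended with library totals (-0.43, adjusted p = 0.112). With library totals the list had 7 higher and 2 lower, and the side with more members changed without Sham 18, Sham 19 or rHCI 11, each leaving 4 lower. The time of day of collection is not given in the labels, and its part in these values was not tested.

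Muscle atrophy and autophagy genes were lower in 11 of 19 members, with the ubiquitin ligases Trim63 (-1.05) and Fbxo32 (-0.70), which degrade myofibrils, and the mitophagy kinase Pink1 (-0.79) all down. With library totals 9 were lower and 7 higher. Genes for protein folding in the endoplasmic reticulum were 9 higher and 6 lower of 25, shares near those of all genes, and 15 and 3 with library totals. The retrieval receptor Kdelr3 and the degradation factor Edem1 rose by 1.93 and 1.21. The chaperone Hspa5, which marks folding stress, fell from 1031, 718, 844, 974 and 825 CPM to 537, 481, 573, 513 and 572 CPM (log2 fold change -0.71 ± 0.097, adjusted p = 5.12e-05), and Herpud1 fell by 0.66.

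Antioxidant and glutathione genes had 13 of 36 higher and 19 lower, and 17 and 15 with library totals. The cystine importer Slc7a11 rose by 5.39 and haem oxygenase, Hmox1, by 2.12, while Gstm1 and Nqo1 fell by 0.78 and 0.61. Glo1, which detoxifies methylglyoxal, measured 88.3, 83.1, 81.3, 83.2 and 87.3 CPM in sham and 68.3, 59.5, 65.4, 71.8 and 74.5 CPM in rHCI. Its groups did not overlap and its log2 fold change was -0.31 ± 0.060 (adjusted p = 6.88e-04), but the call ended with library totals (-0.093, adjusted p = 0.102).

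Genes of the adrenergic, renin-angiotensin and endothelin systems were lower in 14 of 32 members and higher in 6, and the median changed sign with library totals, from -0.20 to 0.031. Ace, the angiotensin-converting enzyme, had 55.5, 49.7, 62.6, 48.2 and 48.5 CPM in sham and 151, 178, 149, 101 and 97.1 CPM in rHCI, higher in every treated heart (log2 fold change 1.36 ± 0.16, adjusted p = 1.41e-05). The angiotensin receptor Agtr1a fell by 0.81, the mineralocorticoid receptor Nr3c2 by 1.09, the adrenoceptor Adra1b by 0.90 and the phosphodiesterase Pde3a by 0.83.

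Some of the transcriptome was close to the sham level. The 95% interval of the fold change lay within 1.5-fold of sham for 7912 genes (49.2% of those tested), 3798 of which were nonetheless called, and within 1.2-fold for 2572. Cytosolic ribosomal proteins were the clearest group, with 57 of 58 inside 1.5-fold, 6 higher and 4 lower. Rps12 rose by 0.33 and Rps2 fell by 0.31, a call that ended with library totals (-0.094, adjusted p = 0.154). With library totals 51 of them were higher and 0 lower, at a median of 0.20, beside 0.22 for all genes.

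Of 17 genes often used to normalise such tissue 7 were higher and 5 lower, shares near those of all genes. Eef1a1, an elongation factor, went from 726, 686, 768, 729 and 726 CPM to 1627, 1860.4, 1706, 1427 and 1365 CPM, and no libraries overlapped (log2 fold change 1.14 ± 0.088, adjusted p = 4.43e-07). Gusb rose by 1.10, Actb by 0.86 and B2m by 0.77, whereas Gapdh (-0.25) fell. The call of Gapdh ended with library totals (-0.027), which called 12 reference genes higher and 3 lower. Markers of tissues that a dissection could carry along were counted as well. Of the 8 skeletal muscle genes 1 was higher and 1 lower, and of the 8 fat genes 0 were higher and 1 lower. Of the 12 Schwann cell and nerve genes 5 were higher and 1 lower, with Mbp up by 1.54, and of the 4 lung and liver genes 2 were higher, including the iron carrier Trf (1.30), and 1 lower. Mast cell genes had 3 of 7 higher and 1 lower.

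The treated hearts differed among themselves, and the order recurred across gene groups. The mean log2 CPM of fibrillar collagens was 4.01, 4.10, 4.13, 4.07 and 3.83 in the sham hearts and 7.08, 7.68, 7.31, 7.04 and 6.55 in rHCI 1, 3, 7, 11 and 13. In the tricarboxylic acid cycle it was 9.60, 9.54, 9.58, 9.62 and 9.64 in sham and 9.03, 8.73, 8.96, 9.16 and 9.30 in rHCI. In both, rHCI 3 was farthest from sham and rHCI 13 nearest to it. The same 2 hearts were at the ends for activated fibroblast genes, at 5.01, 5.50, 5.16, 4.85 and 4.52, and for wall stress genes, at 6.67, 6.81, 6.62, 6.01 and 5.52.

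Immune groups kept that order in part or not at all. Macrophage genes averaged 3.13, 3.18, 3.10, 3.13 and 2.82 in sham and 5.16, 5.42, 5.31, 5.04 and 5.09 in rHCI, with rHCI 3 farthest from sham and rHCI 11 nearest. Genes of lipid-laden and scar-associated macrophages stood at 6.35, 6.52, 6.55, 6.30 and 6.28 in rHCI, with rHCI 7 farthest and rHCI 13 nearest. Interferon-induced genes averaged 3.10, 3.11, 2.96, 2.99 and 2.60 in sham and 3.92, 3.83, 3.80, 4.01 and 3.96 in rHCI, with rHCI 7 nearest. Epicardial genes were highest in rHCI 13, at 3.63, 3.62, 3.29, 3.48 and 3.87 over the treated hearts. Infarct size is not given in the labels, and its part in these differences was not tested.

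**Figure D4:**
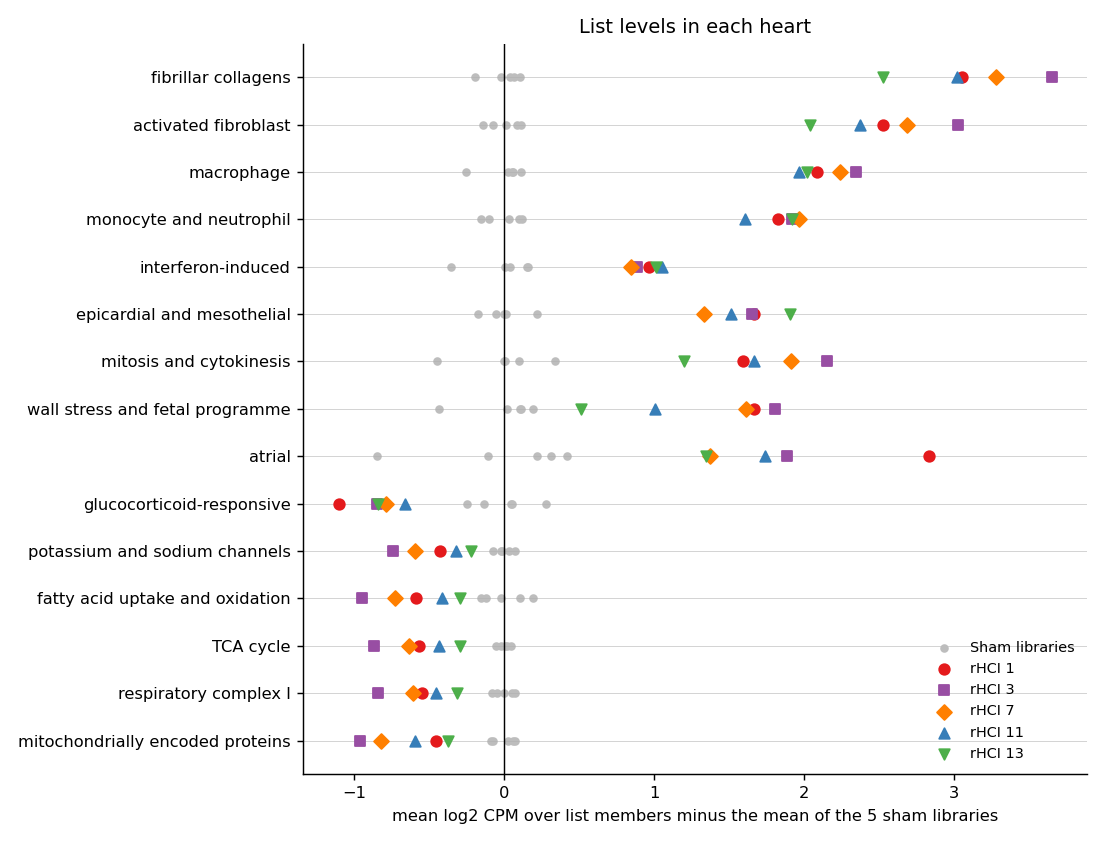
Each row is a gene list and each symbol a library, placed by its mean log2 CPM over list members minus the mean of the 5 sham libraries; grey points are sham libraries and each rHCI heart has its own colour and shape. rHCI 13 lies nearest to the sham points for collagens, fatty acid oxidation and complex I, whereas for interferon-induced and epicardial genes it lies among or beyond the other treated hearts.

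Values for the saline-injected infarcts are given side by side with those of the treated hearts, and both comparisons use the same sham libraries, so they are not independent. Against sham, the PBS group had 11574 of 16207 genes called (71.4%), 5921 of them higher (36.5%) and 5653 lower (34.9%). Col1a1 stood at 5200.4, 4724, 5229, 4823 and 3303 CPM in the PBS hearts 2, 6, 9, 12 and 14, a log2 fold change of 4.73 against sham, beside 4.49 for rHCI. Myh6 had 14354, 14686, 13974, 11379.8 and 19065 CPM there (-1.01 against sham, beside -0.76). Sdha had a log2 fold change of -0.89 against sham in PBS and -0.71 in rHCI, Mpeg1 3.65 and 3.28, and Ccnb1 3.86 and 3.77.

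**Figure D5:**
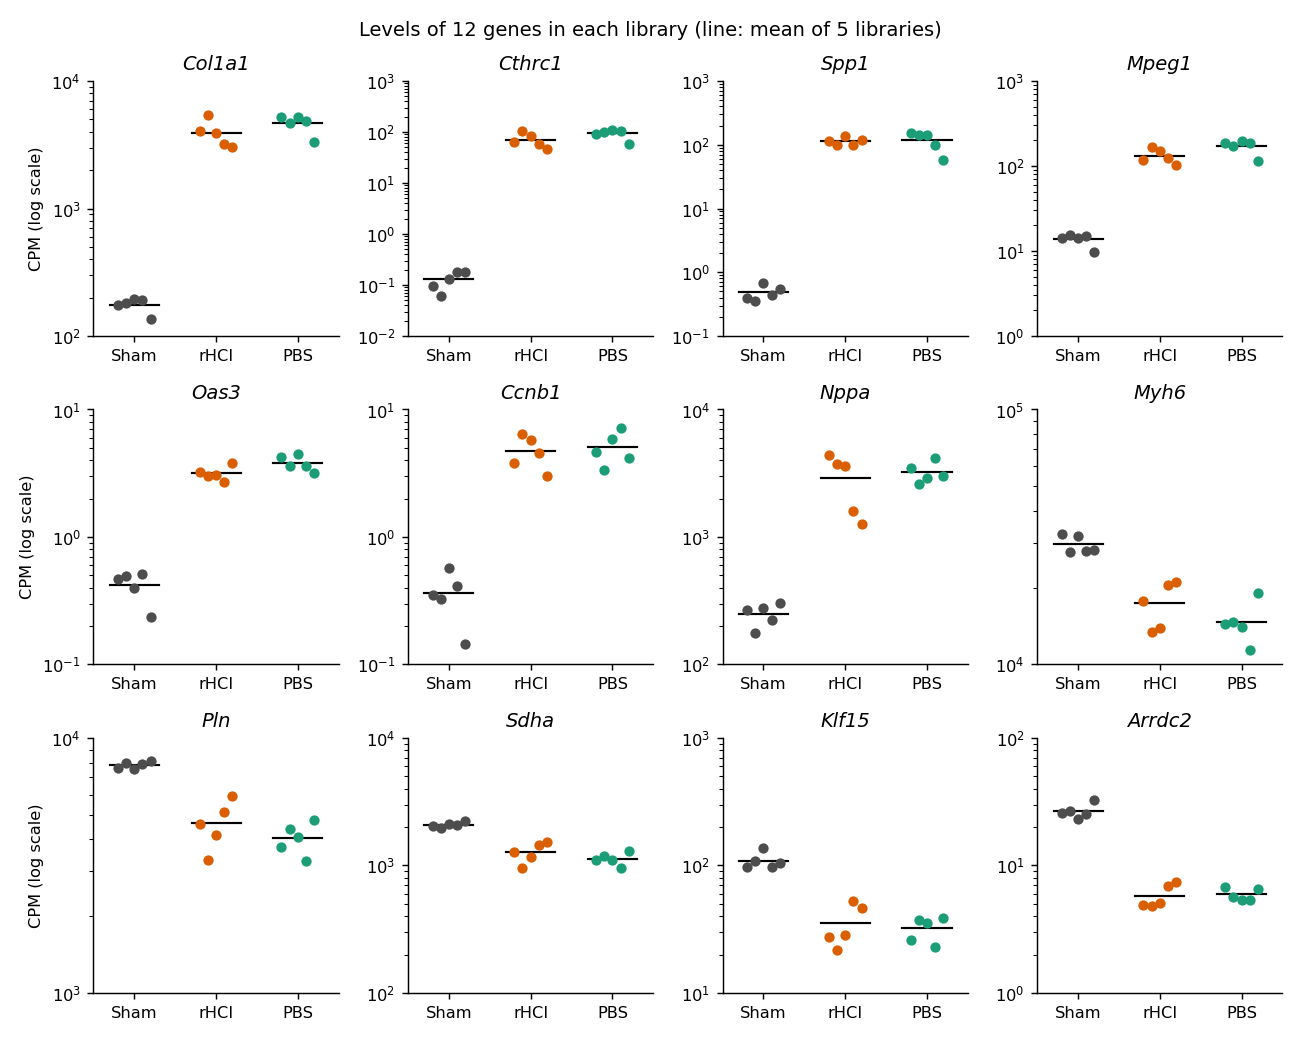
Each panel is a gene, each point a library and each line the mean of 5 libraries, with CPM on a log axis; grey is sham, orange rHCI and green PBS. For all 12 genes the rHCI points are separate from the sham points and overlap the range of the PBS points.

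In the direct test of rHCI against PBS, edgeR called 0 of 16383 genes (0%), while 579 (3.53%) had an unadjusted p under 0.05, DESeq2 called 6, and leaving out single libraries gave 0 to 3. For Col1a1 the log2 fold change of rHCI minus PBS was -0.25 with a 95% interval of -0.63 to 0.14, for Myh6 0.24 with -0.14 to 0.62 and for Nppa -0.14 with -0.83 to 0.54. These intervals include 0 and do not show that the groups are alike. For the median member, rHCI minus PBS was -0.29 in the fibrillar collagens and 0.13 in the tricarboxylic acid cycle. That is on the sham side of PBS in both lists, and no member of either was called. By mean log2 CPM of both lists, rHCI 13 was nearer to sham than any PBS heart. The heart rHCI 3 was about level with the PBS heart farthest from sham. It stood at 7.678 beside 7.668 in PBS 9 for fibrillar collagens, and at 8.728 beside 8.729 in PBS 12 for the cycle. Lists differed in side. The median was 0.35 in the atrial genes and 0.066 in the chemokines and cytokines, which is away from sham, again with no member called. By mean log2 CPM of the atrial genes, rHCI 1 stood at 7.32 and the other treated hearts at 5.84 to 6.37. The PBS hearts stood at 5.83 to 6.59. The atrial share of all counts was 0.471 ± 0.189% in rHCI and 0.508 ± 0.0864% in PBS, which is on the sham side.

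Among genes called against sham, those with the smallest p in that direct test were Tnik, Plet1os and Ston2, higher in rHCI than in PBS, and Erdr1, Ifit1 and Ifit3, lower. Tnik, a kinase of Wnt signalling, had 49.2, 44.7, 49.9, 41.7 and 44.5 CPM in sham, 30.2, 28.2, 28.5, 29.9 and 29.1 CPM in rHCI and 22.2, 25.7, 23.6, 25.1 and 26.1 CPM in PBS, so rHCI lay between the other groups (rHCI minus PBS 0.25, unadjusted p = 3.15e-04, edgeR adjusted p = 0.871). Ifit3, an interferon-induced RNA-binding protein, had 9.80, 8.62, 7.81, 7.24 and 5.66 CPM in sham, 20.7, 19.1, 18.5, 20.8 and 24.5 CPM in rHCI and 31.3, 27.0, 30.0, 23.8 and 24.5 CPM in PBS (rHCI minus PBS -0.40, unadjusted p = 0.00138, edgeR adjusted p = 0.871), and Ifit1 differed by -0.37. The endocytic adaptor Ston2 was higher by 0.42 and the antisense transcript Plet1os by 0.37, whose reads cannot be told from those of its partner if strand was not used. Erdr1 was lower in rHCI than in sham by 1.35 on the log2 scale, a call that ended in the shared run (-1.2, adjusted p = 0.0617), and its reads may be shared with near-identical copies.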

How the data were processed

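Bulk RNA sequencing of left ventricles from 3 groups of 5 C57BL/6 mice was analysed. Per the labels' protocols, hearts were perfused, frozen and ground, and stranded mRNA libraries were made. The deposited values are raw counts per gene, whole numbers for 47069 genes in 1 table of 15 columns. Tools named by the submitters' processing notes, without versions, are STAR, Trimmomatic, edgeR and Cufflinks, beside the builds GRCm38 and mm10. Which program counted the reads, with what annotation and strand setting, is not given in the sources used here, so overlapping and antisense genes may share reads.

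Counts were used as deposited. The comparison of rHCI with sham was fitted on its 10 libraries in edgeR 4.0.16 (R 4.3.3) with TMM factors, filterByExpr, glmQLFit and glmQLFTest, and all adjusted p-values are Benjamini-Hochberg values from that test unless another is named. CPM values use TMM factors of all 15 libraries. Shares of gene pairs were compared with exact two-sided permutation tests over libraries, adjusted over 24 pairs. Alternatives were other scalings (RLE factors, library totals), DESeq2 1.42.0, limma-voom 3.58.1 with quality weights, other filters, a joint fit of all 15 libraries, a covariate for the sequencing run, the shared run alone, a minimum change of 1.5-fold, and leaving out each library.

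The 62 gene lists and the rule for naming genes were chosen with earlier results of these data known. Some genes are in more than 1 list, so the counts of different lists are not independent. The rule took the 10 largest rises and falls among genes of at least 5 CPM without overlap, the 5 largest gains and losses of CPM, leading members of each list, both genes of each pair, and the 3 smallest p-values in each direction for rHCI against PBS. It also took Nppa, Nppb, Myh6, Myh7, Actc1, Ttn, Col1a1, Col3a1 and Glo1. Acta2, Wt1, Col11a2, Gapdh, Arntl, Bdh1, Hspg2, Myl3, Myl7 and Tnnt1 were named after their values were seen. Some genes the rule takes, and 1 of the gene pairs, are not reported here. A pseudocount of 0.5 was used only for mean log2 CPM of lists.

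Replicates of a group differed well beyond counting noise, with a chi-square per gene of at least 16.8 in 20 pairs. The titles carry 1 number per library but do not say that it is an animal, and if some shared an animal the p-values would reflect only sample-to-sample spread. On simulated counts for 15881 genes with 200 changed, 84% of changes of 1 and 99% of changes of 2 on the log2 scale were recovered, and 3.17% of calls were false. Between rHCI and sham 10268 of 16076 genes were called. The share of false calls with that many genes changed was not tested.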

Additional observations from a re-analysis of the deposited data

Results flagged for a closer look

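In 27 of 470 groups of 5 libraries, 1 library stood apart from the others by Dixon's test at the 95% level, which chance gives in about 1 of 20 groups. Of these, 17 were high and 10 low, and they fell on Sham 18 and Sham 20 with 7 each, rHCI 13 with 4, Sham 17 with 3, and Sham 16, Sham 19 and rHCI 1 with 2 each. Values are CPM, with the range of the other 4 libraries of the group in brackets.

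Sham 20 was low for matrix and leukocyte genes, at 153 for Col1a2 (193 to 204), 9.98 for Col16a1 (11.9 to 12.4), 24.8 for Adamts2 (33.0 to 35.3), 9.81 for Mpeg1 (14.1 to 15.5) and 3.17 for C3ar1 (4.13 to 4.43). It was also low for Prox1, at 113 (127 to 129), and for the share of Cox6a1 in Cox6a1 plus Cox6a2, at 4.25% (4.89% to 5.11%). Sham 18 was high at 8.92 for Lox (6.61 to 7.22), 6.67 for Ltbp2 (3.10 to 3.81), 635 for Gpc1 (561 to 576), 6.86 for Sfrp2 (4.12 to 4.83), 0.991 for Hgf (0.573 to 0.689), 41.9 for Cd163 (32.1 to 34.8) and 2.10 for Gpnmb (0.696 to 1.049).

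Sham 17 was high for class II antigen presentation, at 1.54 for Ciita (0.762 to 0.984) and 34.5 for H2-Ab1 (22.1 to 25), and low for Hrc at 1198 (1294 to 1324). Sham 16 stood at 2.08 for Slc16a3 (1.32 to 1.53) and 3.83 for Hif3a (4.32 to 4.45). Sham 19 stood at 0.138 for Cemip (0 to 0.0224) and 6.02 for Per3 (10.2 to 11.9).

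Among the treated hearts, rHCI 1 was high for atrial genes, at 29.1 for Mybphl (3.57 to 8.60) and 43.5 for Sln (4.96 to 10.8). The heart rHCI 13 was high for the clock gene Dbp at 163 (36.4 to 66.2), the chemokine Cxcl14 at 16.3 (7.32 to 8.93), Hsd11b1 at 6.03 (4.13 to 4.52) and Erdr1 at 4.21 (1.30 to 1.61). No test was made of what these libraries have in common.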

How the results depend on the processing

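Against a minimum change of 1.5-fold, edgeR called 2860 genes, 2601 higher and 259 lower, and the lists with most members called in 1 direction went from 46 to 21. That setting asks for larger changes, and 140 of 217 named genes called in the usual test passed it. Library totals left 2128 genes lower and 108 lower by over 2-fold. The latter count was 117 with a filter of 1 CPM in 5 libraries, 368 with no filter and 179 to 347 with single libraries left out (lowest without rHCI 3, highest without rHCI 13), and the cause was not tested. Within 1.2-fold of sham lay 2572 genes, and DESeq2 called 6 genes between rHCI and PBS, edgeR 0 to 3 with single libraries left out.

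Some lists changed the side with more members called. Counting members on their original side, library totals gave 9 for glycolysis, 15 for antioxidant genes and 2 for clock genes. The 1.5-fold minimum gave 1 for the thick and thin filament, 0 for glycolysis, 0 for antioxidant genes and 1 for clock genes. It also left 0 in calcium handling, the tricarboxylic acid cycle, complex I, complexes III to V and the mitochondrially encoded proteins, and 1 in fatty acid oxidation, and library totals left 6 lower creatine and high-energy phosphate genes. Cytosolic ribosomal proteins had 6 with all 15 libraries in 1 fit, 6 with quality weights and 5 without Sham 17, over a range of 5 to 6 without single libraries, and clock genes 4 to 6. With library totals Cox8a was at 0.096 and Ldha at 0.17. Of 62 lists 21, and of 222 named genes 141, kept direction and side of the threshold under all 20 alternatives, 10 of which left out 1 library.

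No paired analysis was possible because the groups share no replicate numbers. Genes of few counts, such as Foxp3, have wide errors, and infarct size, cell numbers and time of day were not used here.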
